A study of Mus musculus with 24 samples.

Results

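YAP1 is a transcriptional co-activator that enters the nucleus and switches on genes together with DNA-binding partners of the TEAD family. In the Hippo pathway the kinases MST1/2 act on the kinases LATS1/2, which phosphorylate YAP1 and keep it in the cytoplasm. Cells spread on stiff matrix are widely used as a setting with high YAP1 activity. Several of the genes YAP1 and TEAD factors switch on feed back on the pathway, among them Amotl2, Ajuba and Lats2. In the embryo the pathway takes part in the choice between trophectoderm and inner cell mass.

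A set of 10 YAP target and Hippo pathway genes, of 35022 genes in one count table and 48709 in the other, was followed in mouse embryonic stem cells (mESCs). They were chosen by symbol: the target genes Cyr61, Ctgf, Ankrd1, Amotl2, Axl, Ajuba and Lats2, and the machinery genes Yap1, Tead1 and Tead4, of which Lats2, Ajuba and Amotl2 also act within the pathway. The choice was made with earlier results of these data known. Each symbol had 1 row in each table. The newer names of Cyr61 and Ctgf are Ccn1 and Ccn2.

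The cells were E14 mESCs, a line of the 129 strain, plated on soft or stiff StemBond hydrogels, polyacrylamide gels to which fibronectin is tethered. All of them were first cultured for 12 h on the gels in 2i + LIF, a medium with the MEK inhibitor PD0325901 (PD03, 1 µM), the GSK3 inhibitor CHIR99021 (CHIRON, 3 µM) and the cytokine LIF. The 0 h libraries come from cells that stayed in 2i + LIF. In one experiment PD03 was then withdrawn, which leaves CHIRON and LIF, and in the other CHIRON was withdrawn, which leaves PD03 and LIF. RNA was taken 2 h and 12 h after withdrawal. Each of the 6 groups of an experiment (2 substrates at 3 times) held 2 libraries, of one cell line, and whether these came from separate cultures is not stated, so that p-values cover the spread between these libraries, which may be technical. A change of medium came with the withdrawal, and the cells had also spent longer on the gels by then. These cannot be told apart from the loss of the inhibitor.

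The 12 libraries of PD03 removal held 16222196 to 26442153 counts, and the 11 libraries of CHIRON removal that entered the tests held 19393787 to 31111260. A 12th CHIRON library, from stiff gels at 2 h, held 171333 counts and was left out. That group therefore rested on 1 library, whose spread was taken from the other groups. Spread between libraries was larger in the CHIRON experiment (biological coefficient of variation 0.0797, against 0.0386 for PD03), so smaller differences could pass the test after PD03 removal. All 7 embryonic stem cell markers were at 1 CPM (counts divided by library size, scaled by TMM) or more, with a summed level of 5601 to 7127 CPM per library after PD03 removal and 4970 to 5470 CPM after CHIRON removal. Of 10 fibroblast markers, 2 and 3 reached a median of 1 CPM, with sums of 14.5 to 18.1 CPM and 13.5 to 28.2 CPM, and Dcn and Postn had a median of 0.0 CPM in both. Of 8 trophectoderm markers 5 and 6 reached a median of 1 CPM, with sums of 72.0 to 84.7 CPM and 81.0 to 109.5 CPM. Cdx2, Eomes, Tfap2c, Krt8 and Krt18 reached it in both and Gata3 in the CHIRON libraries only, with Elf5 and Hand1 under it. Of 8 primitive endoderm markers 3 and 5 reached it, with sums of 10.2 to 17.4 CPM and 18.1 to 27.7 CPM. Col4a1 (8.20 and 6.62 CPM), Pdgfra (1.75 and 1.57 CPM) and Gata6 (1.14 and 1.52 CPM) reached it in both. Dab2 (9.17 CPM) and Gata4 (1.54 CPM) reached it in the CHIRON libraries only, and Foxa2 and Sox7 were under it in both. Some sums moved with time. Stem cell markers went from 6844 to 6997 CPM at 0 h to 5601 to 5998 CPM at 12 h of PD03 removal, and trophectoderm markers from 87.8 to 92.2 CPM at 0 h to 101 to 109.5 CPM at 12 h of CHIRON removal, both without overlap. Primitive endoderm markers went from 10.2 to 12.8 CPM at 0 h to 13.5 to 17.4 CPM at 12 h of PD03 removal and from 18.1 to 23.1 CPM at 0 h to 25.1 to 27.7 CPM at 12 h of CHIRON removal, and fibroblast markers in the CHIRON experiment from 18 to 19.9 CPM at 0 h to 21.9 to 28.2 CPM at 2 h and 13.5 to 16.3 CPM at 12 h, also without overlap. Single genes weigh in these sums. Over the PD03 libraries Tfcp2l1 ran from 1695 to 2548 CPM, while Pou5f1 ran from 975 to 1111 CPM and Esrrb from 1035 to 1150 CPM. Over the CHIRON libraries Tfap2c held a large part of the trophectoderm sum, at 49.4 to 61.5 CPM, and Gata3 ran from 6.07 to 24.4 CPM. A sum that moved is therefore not read as a change in cell content. The part of these cells in the results was not tested. The withdrawals were visible in their own check genes. Dusp6, a feedback phosphatase of the ERK pathway, rose at 2 h of PD03 removal by 1.90 ± 0.06 on soft and 2.15 ± 0.06 on stiff (log2 fold change ± SE, edgeR quasi-likelihood test, adjusted p = 5.4e-20 and 3.7e-22). Axin2, a Wnt target, fell by 2.65 ± 0.09 on soft and by 2.58 ± 0.09 on stiff at 12 h of CHIRON removal (log2, adjusted p = 1.1e-12 and 1.3e-12).

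The promoters were searched for the letters that TEAD factors are known to bind. RefSeq promoter windows (mouse build GRCm38.p6, 250 bases before the transcription start to 50 after it) matched 7 of the 10 genes. The genes without a window were Ctgf, Tead1 and Tead4. The TEAD core GGAATG, or CATTCC on the other strand, was found in 7 of the 8 windows of these genes (Lats2 has 2 windows, and its second had no match), whereas 14.7% of all 32851 windows of this length held it. The AP-1 motif TGANTCA, which reads the same on both strands, was found in 0 of the 8 windows and in 7.81% of all windows. The genes were chosen as known YAP targets and pathway genes, so these contrasts with all windows are a description only. The 250 bases before the RefSeq start of 4 genes are printed because 3 of them (Cyr61, Amotl2 and Ajuba) passed with small adjusted p below, a choice made after their values were seen, while Ankrd1 holds 2 matches and was at or near 0 counts. Capitals mark the TEAD core on either strand, and each sequence runs 5′ to 3′ towards that start.
Cyr61, chr3:145649986-145650235, minus strand: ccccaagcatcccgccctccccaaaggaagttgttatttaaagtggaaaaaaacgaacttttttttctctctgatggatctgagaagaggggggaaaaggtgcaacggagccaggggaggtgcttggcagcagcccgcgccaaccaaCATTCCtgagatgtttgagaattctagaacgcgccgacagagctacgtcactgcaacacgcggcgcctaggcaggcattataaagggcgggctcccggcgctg
Amotl2, chr9:102717554-102717803, plus strand: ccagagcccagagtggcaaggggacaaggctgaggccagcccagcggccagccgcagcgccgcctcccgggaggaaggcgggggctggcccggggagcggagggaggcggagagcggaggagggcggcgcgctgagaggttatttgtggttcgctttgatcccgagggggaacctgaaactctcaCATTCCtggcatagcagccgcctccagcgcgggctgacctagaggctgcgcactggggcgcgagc
Ajuba, chr14:54577662-54577911, minus strand: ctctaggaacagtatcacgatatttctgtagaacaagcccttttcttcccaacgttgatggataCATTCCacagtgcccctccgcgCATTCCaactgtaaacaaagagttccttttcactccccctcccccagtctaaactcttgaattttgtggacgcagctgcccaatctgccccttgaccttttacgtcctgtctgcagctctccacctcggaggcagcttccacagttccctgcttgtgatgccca
Ankrd1, chr19:36119845-36120094, minus strand: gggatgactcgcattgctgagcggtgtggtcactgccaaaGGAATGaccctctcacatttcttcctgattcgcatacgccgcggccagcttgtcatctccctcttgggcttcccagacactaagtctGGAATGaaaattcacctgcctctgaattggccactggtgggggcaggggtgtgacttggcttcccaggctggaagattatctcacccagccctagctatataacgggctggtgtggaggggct

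Counted from the transcription start, the first base of the match lay at -103 in Cyr61 and at -65 in Amotl2. In Ajuba the matches lay at -186 and -164, and in Ankrd1 at -210 and -123. Axl had a match at -233, Yap1 at -141, and Lats2 at 5, just past the start. A match describes letters only, and was not tested for binding. The window of Amotl2 belongs to a start within the annotated gene, which GENCODE places at chr9:102716672-102733418, and both windows of Lats2 also belong to starts within its gene. The window of Ankrd1 belongs to a start within its gene as well, chr19:36111961-36120099. All bases printed for Amotl2 and Ankrd1 thus lie inside the annotated genes.

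Before any withdrawal, Amotl2, an angiomotin family scaffold that binds YAP1, was among the most expressed of the 10 genes per length. Levels are given as RPKM, counts divided by library size and by the length of the annotated exons, over the 4 libraries at 0 h. In the PD03 experiment Amotl2 had a median of 27.6 RPKM (range 26.9 to 28.5). Next came Ajuba, a LIM protein that restrains LATS kinases, at 20.5 RPKM and Yap1 itself at 19.7 RPKM, and the ranges of these overlapped. Tead1 followed at 12.21 RPKM, then Cyr61 at 10.9, Ctgf at 9.13, Tead4 at 8.14, Lats2 at 1.38, Axl at 0.247 and Ankrd1 at 0.0195. Apart from Ajuba and Yap1, no neighbours in this order had overlapping ranges. In the CHIRON experiment Tead1 stood first, at 42.3 RPKM (40.1 to 48.9), before Amotl2 at 25.2 RPKM. Cyr61, Tead4 and Yap1 followed at 16.7, 16.6 and 14.5 RPKM, with overlap between Cyr61 and Tead4 and between Tead4 and Yap1. Ajuba stood at 12.7 RPKM, Ctgf at 9.75, Lats2 at 0.913, Axl at 0.374 and Ankrd1 at 0.0179. The tables of the 2 experiments were made separately, so the higher Tead1 level in the CHIRON libraries cannot be told apart from that difference.

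**Figure D1:**
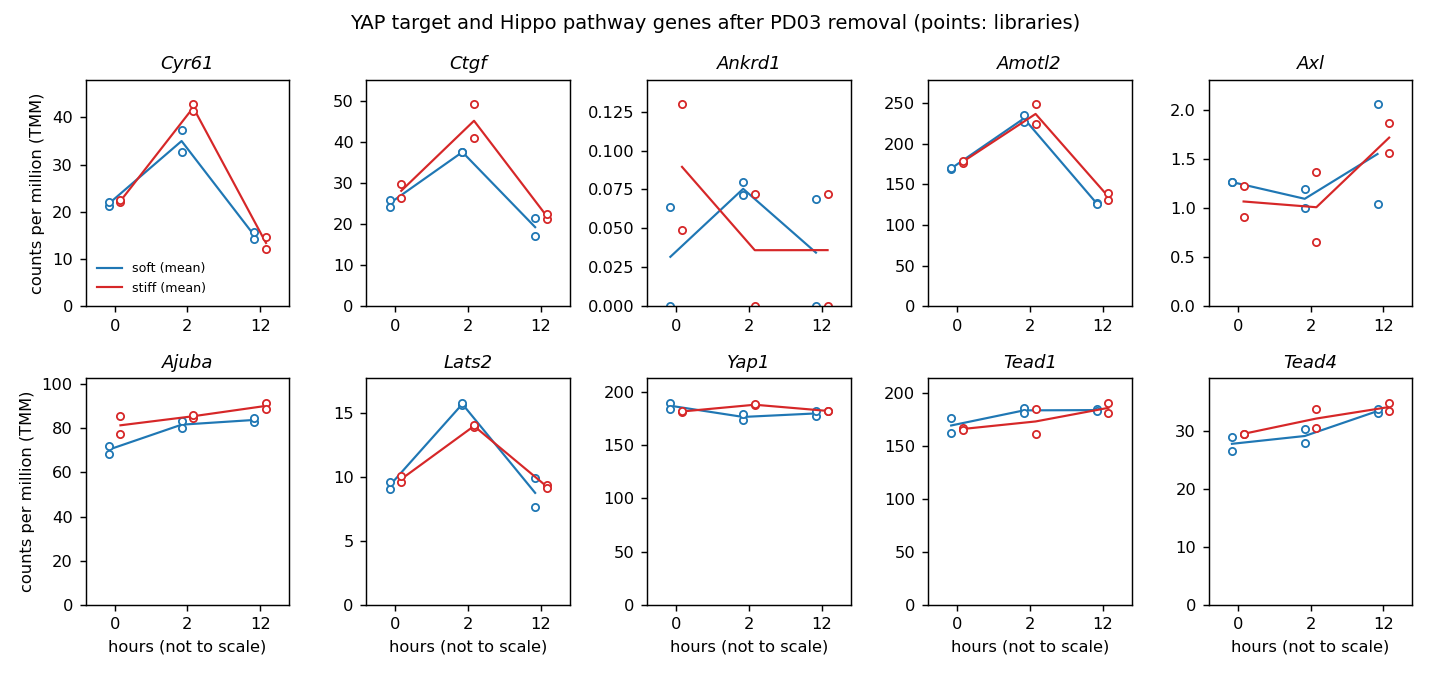
CPM (vertical axis, scaled by TMM) of the 10 genes at 0 h, 2 h and 12 h of PD03 removal (horizontal axis, not to scale), with 1 circle for each library and a line through the means of soft (blue) and stiff (red) gels. Cyr61, Ctgf, Amotl2 and Lats2 peak at 2 h on both substrates, and Cyr61 falls to between 12.0 and 15.7 CPM at 12 h.

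After PD03 removal several target genes were higher at 2 h and 3 of them were lower than at the start by 12 h. At 2 h, 4 of the 9 genes tested rose on soft gels and 4 of 9 on stiff gels, and they were Cyr61, Ctgf, Amotl2 and Lats2 on both. Of all 13423 genes tested, 1.96% passed on soft and 2.73% on stiff, and 1.31% and 1.83% passed as higher. The median log2 fold change of the 9 genes was 0.22 on soft and 0.13 on stiff, beside -0.0017 and -0.0031 over all genes tested. Since the set was chosen with earlier results of these data known, this contrast is a description only. The 2 h and 12 h comparisons share their 0 h libraries. Values below are CPM scaled by TMM, and every adjusted p is that of the edgeR quasi-likelihood test, adjusted by Benjamini-Hochberg over all genes tested.

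Cyr61 (chr3:145646976-145649981, minus strand), a secreted matrix protein of the CCN family that binds integrins, stood at 21.3 and 22.1 CPM on soft and at 22.1 and 22.5 CPM on stiff at 0 h. At 2 h it was at 32.6 and 37.4 CPM on soft and at 41.3 and 42.9 CPM on stiff. At 12 h it was at 14.2 and 15.7 CPM on soft and at 12.0 and 14.8 CPM on stiff. All 2 h libraries thus lay above all 0 h libraries and all 12 h libraries below them. The rise at 2 h was 0.69 ± 0.10 on soft and 0.91 ± 0.09 on stiff (log2 ± SE, adjusted p = 2.6e-05 and 5e-08), or 1.61-fold and 1.89-fold. By 12 h Cyr61 had fallen by 0.54 ± 0.11 on soft and by 0.74 ± 0.11 on stiff (log2, adjusted p = 0.00034 and 4.7e-06).

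Ctgf (chr10:24595442-24598683, plus strand), the other CCN protein of the set and a regulator of matrix production, took the same course. It stood at 24.2 and 25.9 CPM on soft and at 26.4 and 29.8 CPM on stiff at 0 h, at 37.5 and 37.6 CPM on soft and at 41.1 and 49.3 CPM on stiff at 2 h, and at 17.1 and 21.4 CPM on soft and at 21.3 and 22.5 CPM on stiff at 12 h. The 3 times did not overlap on either substrate. It rose by 0.58 ± 0.10 on soft and 0.69 ± 0.10 on stiff at 2 h (log2, adjusted p = 0.00059 and 1.5e-05) and fell by 0.38 ± 0.11 and 0.35 ± 0.11 at 12 h (adjusted p = 0.0086 and 0.0097). The 12 h calls were lost when some single libraries were left out, a fit that leaves 1 library in a group and so also has less power. On soft the change was -0.332 without replicate 1 at 0 h and -0.228 without replicate 2 at 12 h (log2, adjusted p = 0.08 and 0.21). On stiff it was -0.269 without replicate 1 at 0 h and -0.316 without replicate 1 at 12 h (log2, adjusted p = 0.1 and 0.091). Exons of Ctgf overlap the antisense gene Gm15270, and whether the counting used strand is not stated, so its reads cannot be told from those of that gene.

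Amotl2 had the smallest errors of the 4. It stood at 169 and 170.2 CPM on soft and at 177 and 179 CPM on stiff at 0 h. At 2 h it was at 227 and 235 CPM on soft and at 225 and 249 CPM on stiff, and at 12 h at 126 and 127 CPM on soft and at 130.2 and 139 CPM on stiff. No library of one time overlapped with another time. The rise was 0.45 ± 0.05 on soft and 0.41 ± 0.05 on stiff (log2, adjusted p = 1.2e-06 and 2.1e-06), and by 12 h it had fallen by 0.42 ± 0.05 and 0.40 ± 0.05 (adjusted p = 4.9e-07 and 7.1e-07).

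Lats2 (chr14:57689662-57758388, minus strand), the kinase that phosphorylates YAP1, rose at 2 h and was back near its starting level at 12 h. It stood at 9.09 and 9.57 CPM on soft and at 9.61 and 10.1 CPM on stiff at 0 h, and at 15.6 and 15.8 CPM on soft and at 13.9 and 14.1 CPM on stiff at 2 h. The rise was 0.75 ± 0.13 on soft and 0.51 ± 0.13 on stiff (log2, adjusted p = 0.00071 and 0.027). At 12 h the level was 7.62 and 9.90 CPM on soft and 9.15 and 9.36 CPM on stiff, and the difference from 0 h was -0.09 on both (95% interval -0.38 to 0.20 on each, adjusted p = 0.67 and 0.66). The call on stiff at 2 h was lost when any 1 of its 4 libraries was left out (log2 0.477 to 0.541, adjusted p = 0.11 to 0.18), and with DESeq2 (adjusted p = 0.11). That call was also lost with only the groups compared (log2 0.506, adjusted p = 0.057). Lats2 shares exon sequence with Gm49361 on the same strand, so its counts are uncertain.

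The remaining genes moved less at 2 h. Ajuba changed by 0.22 ± 0.06 on soft and 0.07 ± 0.06 on stiff (log2, adjusted p = 0.066 and 0.69), Tead1 by 0.12 and 0.06, Tead4 by 0.07 and 0.13, and Yap1 by -0.08 and 0.05, and none of these passed. Axl (chr7:25757273-25788705, minus strand), a receptor tyrosine kinase, held 10 to 30 counts per library in this experiment, and its intervals were wide (-1.08 to 0.66 on soft). Ankrd1 (chr19:36111961-36120099, minus strand), a nuclear ankyrin repeat protein, held 0 to 2 counts per library of PD03 removal and 0 to 3 of CHIRON removal, did not pass the filter on low counts, and was not tested. No fold is given for it.

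At 12 h of PD03 removal 5 of the 9 genes passed on soft and 5 of 9 on stiff. On soft 2 rose and 3 fell, and on stiff 2 rose and 3 fell. Of all genes tested 29.4% and 38.4% passed on soft and stiff, 14.1% and 18.5% as higher and 15.3% and 19.9% as lower, so nothing is read from the number itself. Cyr61, Ctgf and Amotl2 fell on both substrates. Among the machinery genes, Tead4 (chr6:128224288-128300823, minus strand), a TEAD factor of the trophectoderm, rose from 26.7 and 29.0 to 33.1 and 33.9 CPM on soft and from 29.6 in both libraries to 33.5 and 35.0 CPM on stiff. The changes were 0.27 ± 0.08 and 0.21 ± 0.08 (log2, adjusted p = 0.018 and 0.049). Ajuba rose on soft by 0.25 ± 0.06 (adjusted p = 0.0021), from 68.6 and 72.1 to 82.8 and 84.8 CPM, and was 0.15 ± 0.06 higher on stiff without passing (adjusted p = 0.055). With DESeq2 size factors in edgeR it passed on stiff (log2 0.151, adjusted p = 0.046). Tead1, the more abundant of the 2 TEAD genes, rose on stiff by 0.16 ± 0.06 (adjusted p = 0.024) and was 0.12 ± 0.06 higher on soft without passing (adjusted p = 0.12). Yap1 (chr9:7931999-8004596, minus strand), whose exons overlap the antisense gene Gm20416, differed by -0.06 (95% interval -0.15 to 0.04) on soft and by 0.00 (-0.09 to 0.10) on stiff. The Tead4 call on soft was lost without replicate 2 at 0 h, replicate 1 at 12 h or replicate 2 at 12 h (log2 0.212, 0.285 and 0.250, adjusted p = 0.15, 0.056 and 0.097), and that on stiff without any 1 of its 4 libraries (log2 0.176 to 0.241, adjusted p = 0.089 to 0.24). The call on stiff was also lost with DESeq2 (adjusted p = 0.11), with no filter on low counts (0.089), with all genes (0.056) and with a replicate block by title number (0.051). The Tead1 call was lost without stiff replicate 1 or 2 at 0 h or replicate 2 at 12 h (log2 0.169, 0.157 and 0.124, adjusted p = 0.07, 0.11 and 0.2), and Ajuba on stiff passed without replicate 2 at 0 h (log2 0.222, adjusted p = 0.022).

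**Figure D2:**
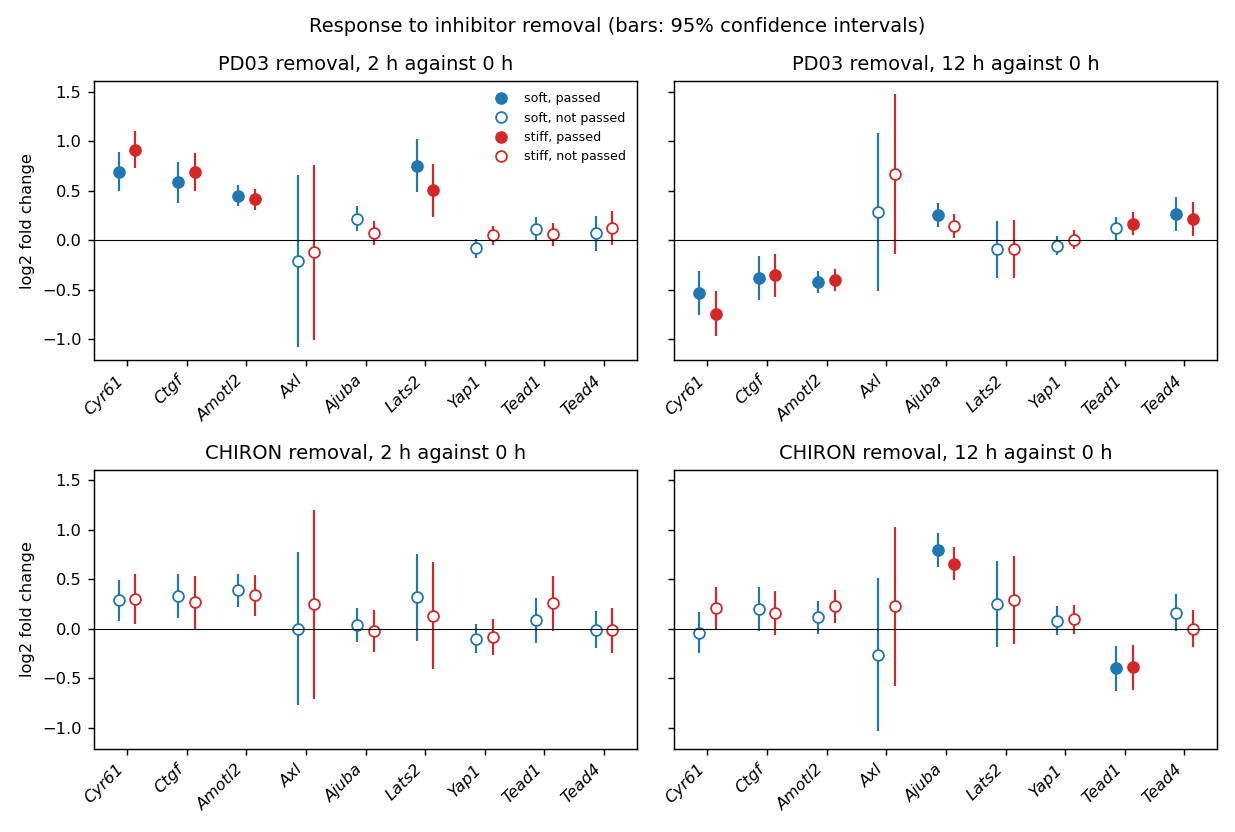
Log2 fold change against 0 h (vertical axis) of the 9 genes tested at 2 h (left) and 12 h (right) of PD03 removal (top) and CHIRON removal (bottom), on soft (blue) and stiff (red) gels, with 95% confidence intervals as bars and filled circles where the adjusted p was under 0.05. After PD03 removal Cyr61, Ctgf and Amotl2 sit above 0 at 2 h and below 0 at 12 h, and after CHIRON removal Ajuba (0.80 and 0.66) and Tead1 (-0.40 and -0.39) are the filled points.

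After CHIRON removal Ajuba rose and Tead1 fell at 12 h, and no other of the 9 genes tested passed. At 2 h 0 of 9 genes passed on either substrate with edgeR, where 0.226% of all 14615 genes tested passed on soft and 0.103% on stiff. At an unadjusted p under 0.05 there were 3 genes on each, Cyr61, Ctgf and Amotl2, and DESeq2 called 1 on soft (Amotl2) and 0 on stiff. The values for these 3 were positive on both substrates. Cyr61 differed from 0 h by 0.29 ± 0.10 on soft and 0.30 ± 0.12 on stiff (log2, adjusted p = 0.35 and 0.63), Ctgf by 0.33 ± 0.11 and 0.27 ± 0.13 (adjusted p = 0.3 and 0.71), and Amotl2 by 0.39 ± 0.08 and 0.34 ± 0.10 (adjusted p = 0.053 and 0.43). On soft, Amotl2 went from 156 and 161 CPM to 197 and 218 CPM, without overlap. The single stiff library at 2 h stood at 205 CPM, above the 154 and 171 CPM of its 0 h libraries.

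Ajuba (chr14:54567472-54577558, minus strand) had the largest change of the 9 after CHIRON removal. It stood at 44.4 and 45.3 CPM on soft and at 47.3 and 47.8 CPM on stiff at 0 h, and its difference at 2 h was 0.04 on soft (log2, 95% interval -0.13 to 0.21) and -0.02 on stiff (-0.23 to 0.19). At 12 h it was at 76.4 and 79.6 CPM on soft and at 74.8 and 75.1 CPM on stiff, far outside the spread of the 0 h libraries. The rise was 0.80 ± 0.08 on soft and 0.66 ± 0.08 on stiff (log2, adjusted p = 1.5e-06 and 1.3e-05), or 1.74-fold and 1.58-fold, and it passed in all 12 alternatives on each substrate. Tead1 (chr7:112679318-112906807, plus strand) fell by 0.40 ± 0.11 on soft and by 0.39 ± 0.11 on stiff (log2, adjusted p = 0.016 and 0.018), from 552 and 596 to 384 and 488 CPM on soft and from 544 and 663 to 459.6 and 461 CPM on stiff, without overlap. These were 2 of 9 genes on each substrate, 1 higher and 1 lower, where 17.8% and 16.8% of all genes passed on soft and stiff, 9.18% and 8.46% as higher and 8.63% and 8.33% as lower.

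The Tead1 call at 12 h of CHIRON removal depended on the fit, and it was lost when some single libraries were left out, which also lowers power. It was lost on both substrates with a replicate block by tube number, the last digit of the tube label in the sample descriptions (adjusted p = 0.054 on soft and 0.13 on stiff), and with the discarded library kept (adjusted p = 1 on both). On soft it was lost without replicate 1 or 2 at 0 h or replicate 2 at 12 h (log2 -0.422, -0.341 and -0.235, adjusted p = 0.063, 0.14 and 0.21), and on stiff without replicate 2 at 0 h or either library at 12 h (log2 -0.229, -0.388 and -0.393, adjusted p = 0.22, 0.098 and 0.11). Cyr61 at 12 h was at -0.04 ± 0.10 on soft and 0.21 ± 0.10 on stiff (log2, adjusted p = 0.85 and 0.17), Ctgf at 0.20 and 0.16, and Amotl2 at 0.12 ± 0.08 and 0.23 ± 0.08 (adjusted p = 0.36 and 0.059), so none of the 3 passed. Without stiff replicate 1 at 0 h, Amotl2 on stiff passed (log2 0.307, adjusted p = 0.04). Lats2, Yap1, Tead4 and Axl did not pass on either substrate. Yap1 lay between 125 and 147 CPM in all 11 libraries.

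**Figure D3:**
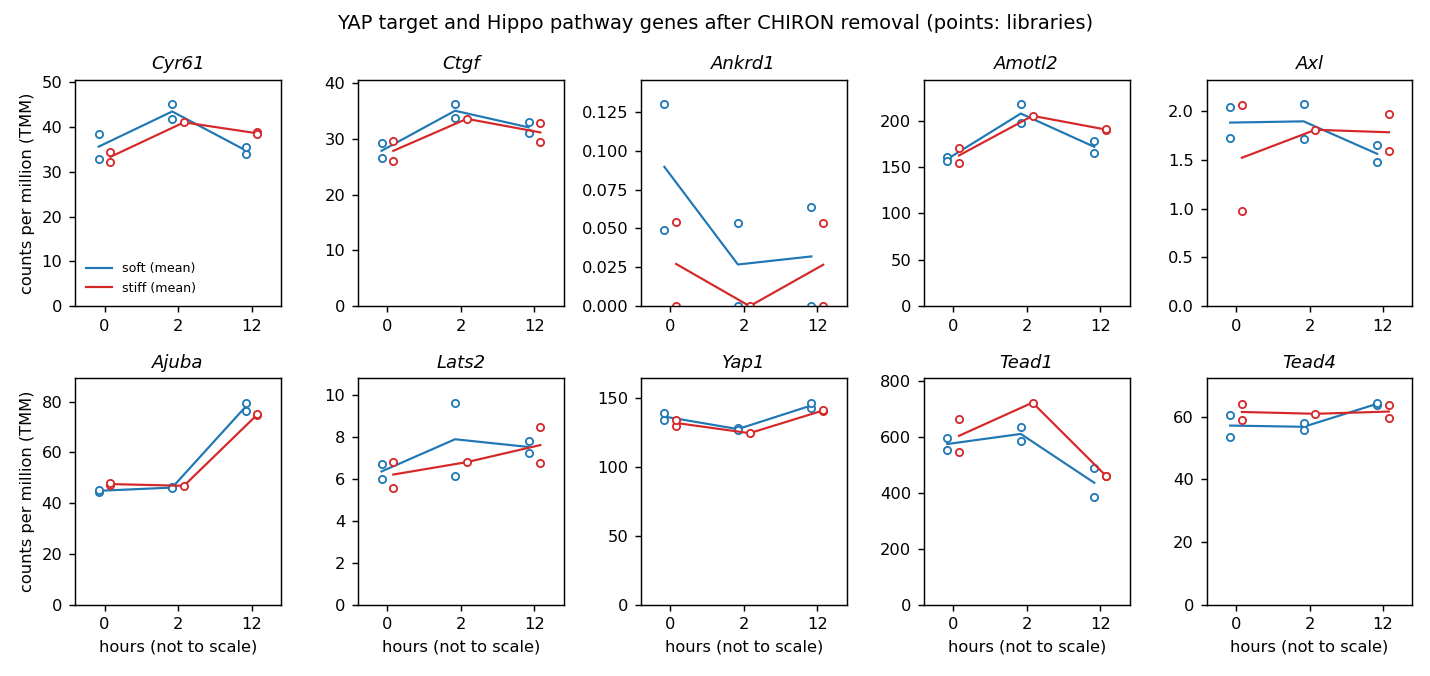
CPM (vertical axis, scaled by TMM) of the 10 genes at 0 h, 2 h and 12 h of CHIRON removal (horizontal axis, not to scale), with 1 circle for each library, a line through the means of soft (blue) and stiff (red) gels and 1 library for stiff at 2 h. Ajuba climbs to between 74.8 and 79.6 CPM at 12 h and Tead1 drops to between 384 and 488 CPM.

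The 2 withdrawals differed in their effect on 5 of 9 genes at 12 h and on 1 of 9 at 2 h. In 1 model over all 23 libraries, the response to CHIRON removal was subtracted from the response to PD03 removal, each averaged over both substrates and taken within its own experiment. Of all 14763 genes tested, 36.1% passed at 12 h and 3.50% at 2 h. The experiments were separate, so the withdrawn inhibitor and the experiment cannot be told apart. At 2 h Cyr61 responded 0.51 ± 0.10 more to PD03 removal (log2, adjusted p = 0.0034), while Ctgf (0.34 ± 0.11, adjusted p = 0.1) and Lats2 (0.41 ± 0.18, adjusted p = 0.26) did not pass. Ctgf passed without replicate 2 of CHIRON stiff at 0 h (log2 0.395, adjusted p = 0.046) and Lats2 without replicate 2 of CHIRON soft at 2 h (log2 0.606, adjusted p = 0.047). For Amotl2 the 2 h difference was 0.07 (95% interval -0.08 to 0.21). At 12 h the difference was -0.73 ± 0.10 for Cyr61, -0.55 ± 0.11 for Ctgf and -0.58 ± 0.07 for Amotl2 (log2, adjusted p = 3.3e-06, 0.00025 and 8.7e-08), 3 target genes that fell after PD03 removal and did not pass after CHIRON removal. For Ajuba it was -0.53 ± 0.06 and for Tead1 0.53 ± 0.09 (adjusted p = 2.7e-07 and 4.3e-05), the genes that moved after CHIRON removal.

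No gene of the set passed the test between soft and stiff gels. With edgeR 0 of 9 passed at 0 h, 2 h or 12 h, or over the 3 times together, in either experiment. In the PD03 experiment 0.0298%, 0.134% and 0.767% of all genes passed at the 3 times and 1.88% over them, and in the CHIRON experiment 0.0% passed in each. The PD03 shares, 18 genes at 2 h and 103 at 12 h, were lower whenever 1 library was left out. Such a fit leaves 1 library in a group and so also has less power. DESeq2 also called 0 of 9 in each of the 8 comparisons. At an unadjusted p under 0.05 there were 1 gene at 0 h (Ajuba), 2 at 2 h (Ctgf and Cyr61), 0 at 12 h and 3 over the 3 times (Ajuba, Amotl2 and Ctgf) in the PD03 experiment and 0 in each CHIRON comparison. A p that misses the threshold does not show equal levels, and the intervals give what these libraries allow.

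Ajuba came closest to a difference, followed by Ctgf. Over the 3 times of the PD03 experiment Ctgf was at -0.20 on soft relative to stiff (log2, 95% interval -0.33 to -0.08, adjusted p = 0.08) and Ajuba at -0.13 (-0.20 to -0.06, adjusted p = 0.051). In the CHIRON experiment the same quantity was 0.03 (-0.10 to 0.17) for Ctgf and -0.02 (-0.12 to 0.09) for Ajuba. Ctgf passed without soft replicate 1 at 12 h or stiff replicate 1 at 2 h (log2 -0.259 and -0.247, adjusted p = 0.03 and 0.026), and with no filter on low counts (adjusted p = 0.022). Ajuba passed without stiff replicate 1 at 0 h (log2 -0.151, adjusted p = 0.026), with no filter (adjusted p = 0.034) and with DESeq2 size factors in edgeR (adjusted p = 0.048).

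Cyr61 over the 3 times was at -0.04 (95% interval -0.17 to 0.08) in the PD03 experiment and at 0.01 (-0.12 to 0.14) in the CHIRON experiment. At 2 h of PD03 removal its soft libraries, at 32.6 and 37.4 CPM, lay below the stiff ones, at 41.3 and 42.9 CPM, with a log2 difference of -0.26 ± 0.09 that did not pass (adjusted p = 0.36). For Yap1 the interval over the 3 times was -0.08 to 0.03 in the PD03 experiment and -0.05 to 0.13 in the CHIRON experiment. For Tead1 it was -0.03 to 0.10 and -0.27 to 0.01. Axl, with few counts, had the widest interval of the 9 (-0.43 to 0.55 in the PD03 experiment). A difference between soft and stiff in the response itself did not pass in edgeR for any of the 9 genes at 2 h or 12 h of either removal (0 of 9 in each, 0 at an unadjusted p under 0.05, and 0 by DESeq2). Of all genes tested, 0.00745% passed at 2 h of PD03 removal and 0.0% in the other comparisons of this kind.

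**Figure D4:**
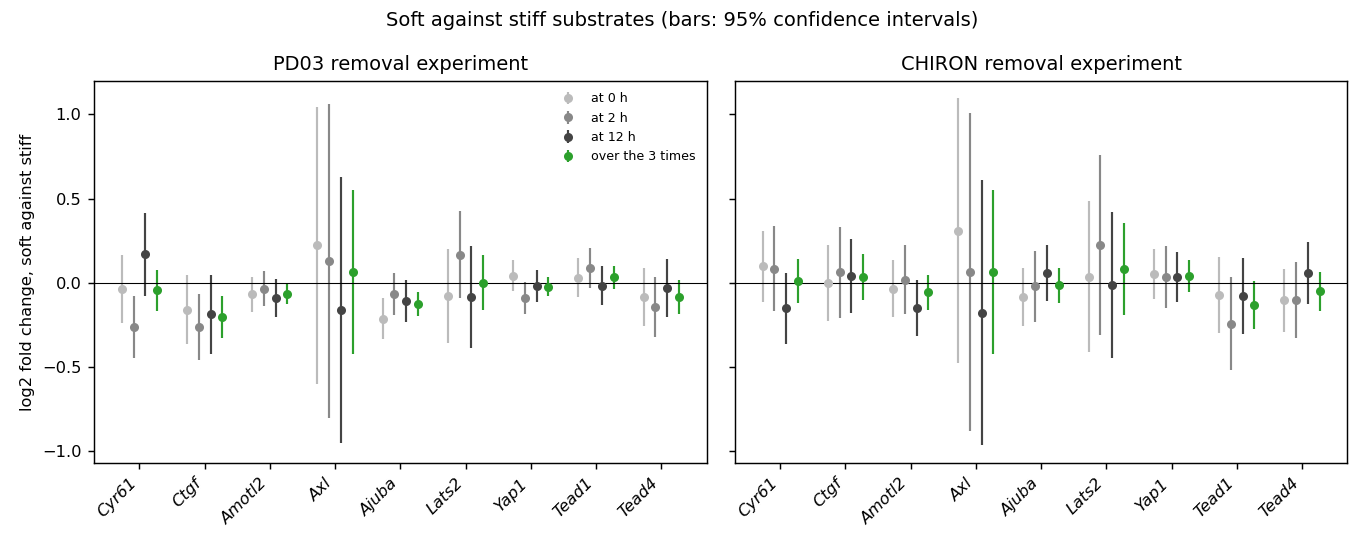
Log2 fold change of soft against stiff gels (vertical axis) for the 9 genes tested in the PD03 (left) and CHIRON (right) experiments at 0 h, 2 h, 12 h and over the 3 times, with 95% confidence intervals as bars. No difference passed the adjusted test, and over the 3 times of the PD03 experiment Ctgf (-0.20) and Ajuba (-0.13) lie below 0.

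The wider pathway was described with 3 further lists, of which none shares a gene with the 10. Among 22 genes of the Hippo core and its upstream regulators, 0 of 21 tested passed at 2 h of PD03 removal with edgeR on either substrate (4 on soft and 1 on stiff at an unadjusted p under 0.05, and 0 by DESeq2). At 12 h 2 rose and 5 fell on soft, and 3 rose and 5 fell on stiff. With 29.4% of all genes passing on soft and 38.4% on stiff, these 7 and 8 of 21 are near the background, and the genes named below are a description. Stk3, which encodes the kinase MST2, fell by 0.47 ± 0.07 on soft and 0.66 ± 0.08 on stiff (log2, adjusted p = 1.7e-05 and 7.5e-08). Map4k4, a kinase that acts on LATS in parallel to MST, fell by 0.37 ± 0.05 and 0.28 ± 0.05, Frmd6 by 0.32 ± 0.09 and 0.71 ± 0.09, and the angiomotin Amotl1 by 0.31 ± 0.10 and 0.38 ± 0.10 (log2, soft and stiff). Ptpn14, a phosphatase that binds YAP1, rose by 0.55 ± 0.09 and 0.33 ± 0.09, and Taok2 by 0.18 ± 0.05 and 0.21 ± 0.05. The others that passed were Wwc1, which fell on soft, Nf2, which fell on stiff, and Rassf1, which rose on stiff, and Wwc1 and Rassf1 are named after their values were seen. The median of the list was -0.02 on soft and -0.05 on stiff, beside 0.00 on both over all genes.

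After CHIRON removal 0 of 22 Hippo genes passed at 2 h with edgeR (1 on soft and 2 on stiff at an unadjusted p under 0.05, and 0 by DESeq2), and 3 rose and 0 fell at 12 h on each substrate, where 17.8% of all genes passed on soft and 16.8% on stiff. In either direction that is no larger a share than over all genes. As higher, 9.18% of all genes passed on soft and 8.46% on stiff, and nothing is read from the number of these genes. The 3 genes were Map4k4 (0.49 ± 0.08 on soft and 0.46 ± 0.08 on stiff), Nf2, which encodes the scaffold merlin (0.41 ± 0.07 and 0.46 ± 0.07), and Amotl1 (0.36 ± 0.11 and 0.52 ± 0.11). Of 8 alternatives, Map4k4 and Nf2 passed in 7 on each substrate, and Amotl1 in 6 on soft and 7 on stiff. In the model of both removals the 12 h responses of these 3 genes differed, by -0.80 ± 0.07 for Map4k4, -0.55 ± 0.06 for Nf2 and -0.78 ± 0.11 for Amotl1 (log2, PD03 minus CHIRON, adjusted p = 4e-10, 1.7e-08 and 2.3e-06).

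Of the 7 YAP partners listed, 5 passed the filter. Tead2 rose at 12 h of both removals, by 0.35 ± 0.06 on soft and on stiff after PD03 removal and by 0.37 ± 0.09 and 0.38 ± 0.09 after CHIRON removal. Its calls after CHIRON removal were made in 7 of 8 alternatives on soft and in 6 on stiff. Tead3 rose after PD03 removal by 0.66 ± 0.22 on soft and 1.33 ± 0.24 on stiff (adjusted p = 0.026 and 6.1e-05), and Vgll4, which competes with YAP1 for TEAD, fell by 0.31 ± 0.10 and 0.61 ± 0.10. In all 2 rose and 1 fell on soft and 2 rose and 2 fell on stiff after PD03 removal, and 1 and 2 rose after CHIRON removal. Over all genes 29.4% and 38.4% passed after PD03 removal and 17.8% and 16.8% after CHIRON removal. With DESeq2 1 of the 3 calls on soft after PD03 removal was left, since Tead3 (adjusted p = 0.093) and Vgll4 (adjusted p = 0.052) were lost. Wwtr1, which encodes the YAP1 paralogue TAZ and is named after its values were seen, was the further gene on stiff, lower after PD03 removal and higher after CHIRON removal.

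Of a further 15 genes often used as a YAP target signature, 12 were tested after PD03 removal and 13 after CHIRON removal, and some of those passed in each direction. At 2 h of PD03 removal 2 of 12 tested rose on soft, Fjx1 by 1.21 ± 0.12 and Nt5e by 0.46 ± 0.06, and 3 rose on stiff, Fjx1 by 1.43 ± 0.12, Nt5e by 0.39 ± 0.06 and F3, named after its values were seen, where 1.96% and 2.73% of all genes passed. At 12 h of PD03 removal 3 of 12 tested rose and 2 fell on each substrate, where 29.4% and 38.4% of all genes passed on soft and stiff. Nt5e, the ecto-enzyme CD73, rose by 0.67 ± 0.06 and 0.82 ± 0.06, Arhgef17 by 0.66 ± 0.10 and 0.49 ± 0.10, and Fjx1 by 0.43 ± 0.13 and 0.87 ± 0.13 (log2, soft and stiff). Gadd45b, a stress response gene, fell by 0.92 ± 0.11 and 1.11 ± 0.11, and Myof by 0.52 ± 0.06 and 0.48 ± 0.06. At 12 h of CHIRON removal 4 of 13 rose and 3 fell on soft, and 5 rose and 4 fell on stiff, where 17.8% and 16.8% of all genes passed. There Nt5e fell by 3.26 ± 0.19 on soft and 2.64 ± 0.18 on stiff (adjusted p = 1.5e-09 and 1.7e-08), and Fjx1 by 0.85 ± 0.18 and 0.88 ± 0.19, while Myof rose by 0.77 ± 0.10 and 0.68 ± 0.10. For these 3 genes the 12 h responses differed between the removals, by 3.69 ± 0.12 for Nt5e, 1.52 ± 0.15 for Fjx1 and -1.23 ± 0.09 for Myof (log2, PD03 minus CHIRON, adjusted p = 2.9e-19, 4.1e-09 and 2.4e-11). Asap1 fell by 0.40 ± 0.09 and 0.41 ± 0.09, Dock5 rose by 0.40 ± 0.10 and 0.42 ± 0.11, and Arhgef17 rose by 0.48 ± 0.12 and 0.42 ± 0.12 after CHIRON removal. Of 8 alternatives for these 12 h calls, Nt5e passed in 8 and Myof, Fjx1 and Asap1 in 7 on each substrate. Dock5 and Arhgef17 passed in 7 on soft and in 6 on stiff. Crim1 also rose on both substrates, and on stiff Gadd45b rose and F3 fell, with Crim1 and F3 named after their values were seen. The Gadd45b call on stiff (adjusted p = 0.042) was made in 2 of 8 alternatives, with an adjusted p of up to 0.49.

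Between soft and stiff gels 1 gene of the 3 lists passed, in 1 of the 8 comparisons, that over the 3 times of the PD03 experiment, where 1.88% of all genes passed. Gadd45b was 0.23 ± 0.06 higher on soft over the 3 times of the PD03 experiment (log2, adjusted p = 0.049), and -0.07 ± 0.08 in the CHIRON experiment (adjusted p = 0.86). Over 5 alternatives its adjusted p ran from 0.0081 to 0.097, and it passed in 3 of them. These did not include fits with a library left out, which were not examined for the genes of the 3 lists.

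**Figure D5:**
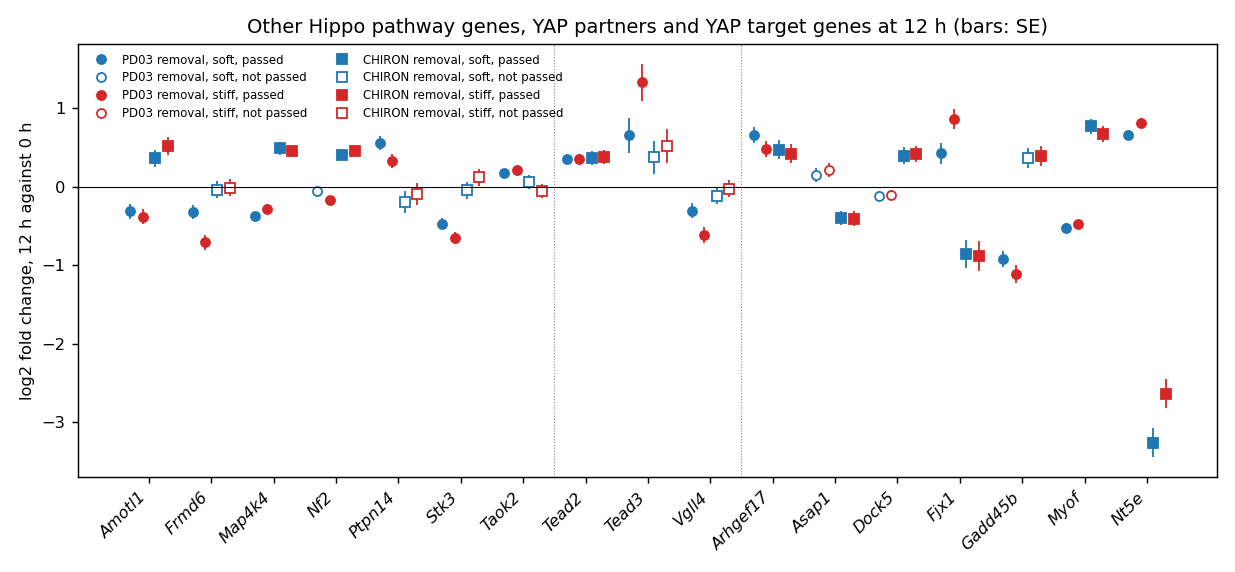
Log2 fold change at 12 h against 0 h (vertical axis, bars show the SE) of the genes named from the 3 lists, after PD03 removal (circles) and CHIRON removal (squares), on soft (blue) and stiff (red) gels, filled where the adjusted p was under 0.05. Dotted lines part the Hippo core and upstream genes (left), the YAP partners (middle) and the signature genes (right), and Nt5e lies at 0.67 and 0.82 after PD03 removal and at -3.26 and -2.64 after CHIRON removal.

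Genes with a course like that of Cyr61 and Ctgf were sought among 11875 protein-coding genes with a mean of at least 1 CPM in both experiments, ranked by the smaller of the 2 Pearson correlations of log2 CPM, over 12 and 11 libraries. Whether the libraries of an experiment share a batch is not stated, and the correlations are a description. Nearest to Cyr61 were Mfsd2b (0.854 after PD03 removal and 0.824 after CHIRON removal), Amotl2 (0.971 and 0.81) and Gm364 (0.806 and 0.791). Nearest to Ctgf were Amotl2 (0.961 and 0.878), Nabp1 (0.813 and 0.801) and Wdr45 (0.925 and 0.794). Cyr61 and Ctgf correlated with each other at 0.935 after PD03 removal and at 0.599 after CHIRON removal, which put Ctgf at rank 44 for Cyr61 and Cyr61 at rank 42 for Ctgf.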

How the data were processed

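Ribosome-depleted RNA of mESCs was sequenced in 24 libraries, and the tables the authors deposited hold raw counts per gene. Per the labels and the study's methods, reads were trimmed with Trim Galore, aligned with TopHat2 2.1.0 to GRCm38 and counted with featureCounts 1.5.0. The strand setting is not given in the sources used here, so antisense and overlapping genes cannot be separated. The PD03 table holds 12 further columns of other media, which were not used, 15 date-like gene names, left as unmatched, and 23 blank lines. Symbols were matched to GENCODE M21 (34890 and 48349 genes), and protein-coding genes (19323 and 21695) were kept, as the study did.

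Genes were filtered with filterByExpr (minimum count 10, minimum total 15), which left 13423, 14615 and, for both experiments together, 14763. Counts were scaled by TMM and fitted with edgeR 4.0.16 (R 4.3.3) as 6 groups per experiment without a replicate block, or as 12 groups over both. Calls used an adjusted p under 0.05. On simulated counts with 200 genes changed by 1 on the log2 scale, edgeR recovered 182 with 12 false calls (PD03 design, 13423 genes) and 175 with 16 (CHIRON design, 14615 genes). Only 12 h against 0 h on soft was simulated. The changes reported for the 10 genes are smaller, and recovery of such changes or in the other comparisons was not tested. The library with 171333 counts was left out, a choice also made in the study. Alternatives were DESeq2 1.42.0, DESeq2 size factors, no filter, all genes, fits of only the groups compared, replicate blocks, the discarded library kept, and each library left out. For single genes, fits with a library left out were examined for the 10 genes only. Replicates differed beyond counting error (chi-square per degree of freedom 2.19 to 18.07), so no 2 were copies of one library.

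The genes and lists were chosen with earlier results of these data known. Named were all 10 genes, from the lists every gene that passed between soft and stiff and up to 6 of a list that passed on both substrates at 12 h, the 3 genes most like Cyr61 and Ctgf, and the check genes Dusp6 and Axin2.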

Additional observations from a re-analysis of the deposited data

Results flagged for a closer look

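For 6 values the response to PD03 removal differed from the response to CHIRON removal by the test of the difference itself (edgeR, adjusted p under 0.05, log2, PD03 minus CHIRON). At 2 h this was Cyr61, at 0.512. At 12 h these were Cyr61, at -0.727, Ctgf, at -0.551, Amotl2, at -0.584, Ajuba, at -0.528, and Tead1, at 0.534. The experiment and the inhibitor cannot be told apart in these differences.

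The library from stiff gels at 2 h of CHIRON removal that entered no test held reads of 4 of the 10 genes above a floor of 3 counts: 14 counts of Tead1, 10 of Yap1, 5 of Amotl2 and 4 of Ajuba, of 171333 in all. It held 2 counts of Lats2, 1 of Tead4 and 0 of Cyr61, Ctgf, Axl and Ankrd1.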

How the results depend on the processing

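No result reversed under any alternative, and of the counts of the 10 genes recomputed under alternatives that left out no library 139 stayed within 1.5 times the reported count and 11 did not. The 139 include the many counts of 0 that stayed 0, so they do not measure how firm the calls were. Between soft and stiff over the 3 times of PD03 removal, 1 gene passed with DESeq2 size factors and 2 with no filter, in place of 0. At 2 h of CHIRON removal on soft, 1 gene (Amotl2) passed with DESeq2, with no filter and with only the groups compared, in place of 0. At 12 h of CHIRON removal 1 gene in place of 2 passed on soft and on stiff with a replicate block by tube number, the last digit of the tube label in the descriptions of the CHIRON samples (Tead1, adjusted p = 0.054 and 0.13) and with the discarded library. With that library the difference between the removals passed in 0 genes at 2 h and in 3 at 12 h, in place of 1 and 5. By the number in the sample titles, deviations from the group means correlated little between same-numbered libraries. The mean was -0.00277 in the PD03 experiment (range -0.052 to 0.112) and -0.0198 in the CHIRON experiment (-0.109 to 0.071). This was not computed by tube number, and whether libraries shared a culture was not tested. The replicate block by the number in the sample titles changed 1 call of the 10 genes, Tead4 on stiff at 12 h of PD03 removal (adjusted p = 0.051).

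With 1 library left out, the number of genes passing ran from 0 to 1 between soft and stiff over the 3 times of PD03 removal. At 2 h of PD03 removal it was 4 on soft and 3 on stiff in every case, and at 12 h it ran from 3 to 4 on soft and from 2 to 4 on stiff. At 12 h of CHIRON removal it ran from 1 to 2 on soft and from 1 to 3 on stiff. For the difference between the removals it ran from 1 to 2 at 2 h and stayed at 5 at 12 h. In the other comparisons it was 0.

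Over all genes the counts called also moved. At 12 h of CHIRON removal 457 and 461 genes passed with that library, in place of 2603 and 2455, and at 12 h of the difference between the removals 2547 in place of 5325. With no filter, soft against stiff over the 3 times gave 366 genes in place of 253 for PD03 and 100 in place of 0 for CHIRON. With DESeq2 2938 and 4044 genes passed at 12 h of PD03 removal on soft and stiff, in place of 3945 and 5158. With 1 library left out, soft against stiff gave 5 to 13 genes in place of 18 at 2 h of PD03 removal and 12 to 32 in place of 103 at 12 h. With 2 libraries a group and, for stiff gels at 2 h of CHIRON removal, 1 library, small differences could be missed. Depth limits Axl and Ankrd1.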
